A study of Oikopleura dioica with 12 samples.

Results

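Operons of 3 or 4 genes were predicted from the annotation of the *Oikopleura dioica* genome, and the genes in them were followed by their place in the operon. Gene models were sorted by scaffold, strand and start, and consecutive models separated by at most 60 bp (overlaps included) were joined. This gave 389 operons of 3 and 171 operons of 4, with 1851 gene models. Of these, 44 models had under 100 reads over the 12 libraries and 10 had no row of counts, which left 1797 genes among the 14574 genes tested. They were 1125 genes of operons of 3 and 672 genes of operons of 4, and 527 operons were complete. The other tested genes with a model were 2385 in operons of 2, 1132 in operons of 5 or more and 9211 outside operons. No value of expression was used in the choice beyond the minimum of 100 reads.

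Libraries of total RNA and of ribosome-protected mRNA fragments (RPFs, the stretches that a ribosome covers during nuclease digestion) were made from day 6 females of *O. dioica*, a planktonic tunicate. Whole animals were held for 1.5 h in 1 μM Torin 1, an inhibitor of the mTOR kinase, or in the vehicle DMSO. Each of the 3 biological replicates per treatment was a pool of animals, and the RNA and RPFs of a replicate came from the same collection. Both kinds of library were depleted of ribosomal RNA. Heat was used to fragment total RNA, and ribosomes were not arrested with cycloheximide. As the libraries came from whole animals, fewer cells of a type and less RNA per cell cannot be told apart.

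In *O. dioica*, as in nematodes, neighbouring genes can be transcribed together as a polycistronic RNA, which is cut into single mRNAs by trans-splicing of a short spliced leader onto the 5′ end of each downstream coding unit. The mature mRNAs of an operon therefore share a promoter but are translated apart. TOP mRNAs, which in vertebrates carry a terminal oligopyrimidine motif at their 5′ end, encode ribosomal proteins and translation factors, and their translation depends on mTOR. Whether genes of an operon had like RNA levels, like ribosome occupancy and like responses to Torin 1 was the question of the comparison by position.

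Some libraries stood apart. Counts totalled 7520819 to 27462750 in the RNA libraries, 22889270 in RPF DMSO replicate 1 and only 91549 to 874562 in the other 5 RPF libraries. Operon genes took 12.9 to 20.7% of RNA counts and 8.06 to 15.6% of RPF counts. In RPF Torin 1 replicate 3, the shallowest, 453 operon genes (25.2%) were at 0, and a count of 0 there allows up to 32.8 RPM (counts scaled to a common library total). RNA DMSO replicate 2 and RNA Torin 1 replicate 2 differed by little more than sampling noise (chi-square per degree of freedom 1.07, against 26.6 to 849 for other RNA pairs). RPF DMSO replicate 1 correlated with RNA Torin 1 replicate 3 at a Spearman coefficient of 0.952, above the 0.66 to 0.82 of RNA and RPF libraries of the same collection. Whether a library was repeated or carries another's label was not tested, and values that rest on these libraries hold only if their labels do. The 18 described genes found by sperm and cilia keywords, 2 of them in these operons, summed to 12121 RPM in RNA Torin 1 replicate 3 against 77.3 to 260 in RNA DMSO. In RPFs they summed to 15978, 1485 and 3896 RPM in DMSO and to 5471, 17232 and 4817 under Torin 1. RPF DMSO replicate 1, RNA Torin 1 replicate 3 and both RNA replicate 2 libraries were kept, and values without these 4 are given where they changed a result. Where that leaves a single RNA Torin 1 library, counts of calls are left out of these results. Those for RPF against RNA appear only in the closing section on the processing.

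The operons were compact. The 1291 gaps within them had a median of 29 bp with quartiles of 25 and 34 bp, 913 (70.7%) measured 20 to 40 bp, and 7 neighbours overlapped by 1 bp. The operons lay on 146 scaffolds, 277 of 560 on the forward strand, and the median span was 5040 bp for 3 genes and 6993 bp for 4. Their genes had a median coding length of 891 bp, against 993 bp outside operons. A single coding exon was found in 0.445% of them and in 3.50% of genes outside. Coding length varied with position in operons of 4, with medians of 1044, 850.5, 784.5 and 984 bp from first to last. No genome of the build of the files was used here, so the intergenic sequences are not shown. The sequences shown are qPCR primers of the study for 2 ribosomal protein genes of these operons, written in lower case and without marked bases, and the RPFs of both genes are given below. RPL35A, the second gene of an operon of 4 on scaffold 21, had 2 pairs, and RPL36AL, the gene before the last of an operon of 4 on scaffold 3, had 1.
RPL35A forward, first pair: aaacacgcacgaaaagtccg
RPL35A reverse, first pair: ccatagccttgggtggaagg
RPL35A forward, second pair: cctctcctcttcccgagaca
RPL35A reverse, second pair: gacggtgttccagagcttga
RPL36AL forward: gactccatcttcgctcaggg
RPL36AL reverse: ttcttgtcaccaccgagctc

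Genes of operons of 3 or 4 were more abundant as RNA than genes outside operons, and the distance was smaller among RPFs. Levels were compared per kilobase of exon as RPKM (reads per kilobase of exon, relative to the library total after TMM scaling) on a log2 scale. In RNA of DMSO animals the median level of the operon genes was 5.39 ± 0.35 (SD, n = 3 libraries), against 2.29 ± 0.50 outside, a difference in level of 3.09 ± 0.85 log2 units or 8.54-fold. In RPFs of DMSO animals the medians were 4.69 ± 0.13 and 3.09, a difference of 1.60 ± 0.18 or 3.03-fold. The log2 ratio of RPF to RNA was correspondingly lower for operon genes in all 3 DMSO collections, with a mean difference between the medians of −0.82 ± 0.29 (−1.14 to −0.59). Under Torin 1 the differences in level were 1.82 ± 0.94 in RNA and 1.28 ± 0.32 in RPFs, and that in the ratio ran from −1.28 to 0.75, so its direction was not the same in the 3 collections. Genes of operons of 5 or more had nearly the same RNA level in DMSO (operons of 3 or 4 minus these, −0.01 ± 0.05), while genes of operons of 2 lay below (0.68 ± 0.16). The plot of levels by class shows the median RNA and RPF levels for every library.

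**Figure D1:**
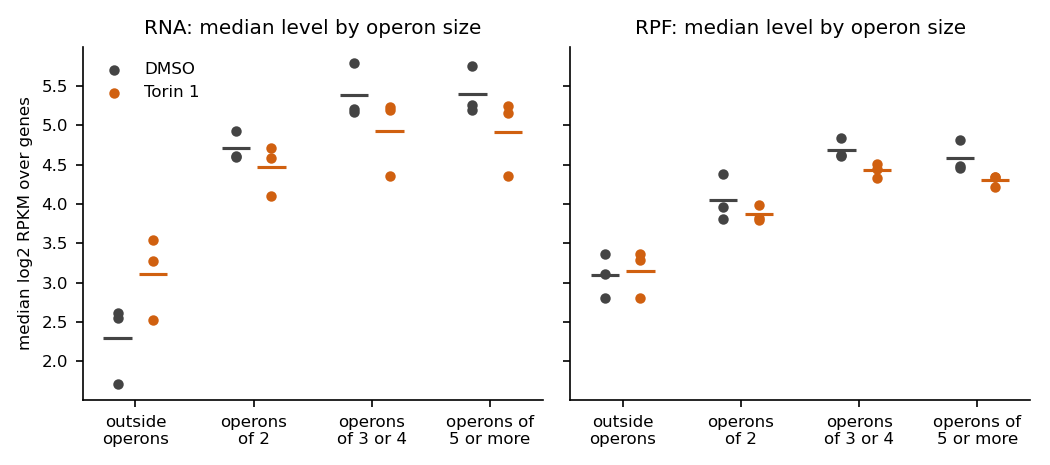
Median log2 RPKM in RNA and RPF libraries, by operon class. Each point is 1 library. In the RNA of DMSO animals, genes of operons of 3 or 4 sit at a median of 5.39 and genes outside operons at 2.29.

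Position in the operon had a small relation to level. In operons of 3, the median over operons of the second gene's log2 RPKM minus that of the first was 0.07 ± 0.01 in RNA and 0.18 ± 0.12 in RPFs of DMSO animals, and it was above 0 in all 12 libraries (0.04 to 0.25). The third gene differed from the first by 0.03 ± 0.05 in RNA and by 0.00 ± 0.05 in RPFs, with 6 of 12 libraries below 0. In operons of 4 the median differences from the first gene in RNA of DMSO animals stepped down along the operon. The second gene lay below the first by −0.07 ± 0.05 in RNA of DMSO animals, the third by −0.12 ± 0.04 and the fourth by −0.26 ± 0.03. In RPFs the positions in between showed no such order: the second and the third gene differed from the first by −0.06 ± 0.12 and −0.17 ± 0.15 in DMSO and by −0.16 ± 0.22 and −0.05 ± 0.39 under Torin 1, where the third was above the first in 2 of 3 libraries. The fourth gene was below the first in all 12 libraries, with a mean of −0.30 ± 0.17 in RNA under Torin 1, −0.28 ± 0.15 in RPFs in DMSO and −0.23 ± 0.13 in RPFs under Torin 1. Even so, the fourth gene had the higher RNA level in 43.5% of operons. The differences varied far more between operons than between libraries. In RNA DMSO replicate 1 the quartiles of the fourth gene minus the first were −1.20 and 0.88 log2 units (164 operons). Those of the second minus the first in operons of 3 were −0.88 and 1.23 (366 operons). The ± values cover the spread between libraries of the same operons only.

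**Figure D2:**
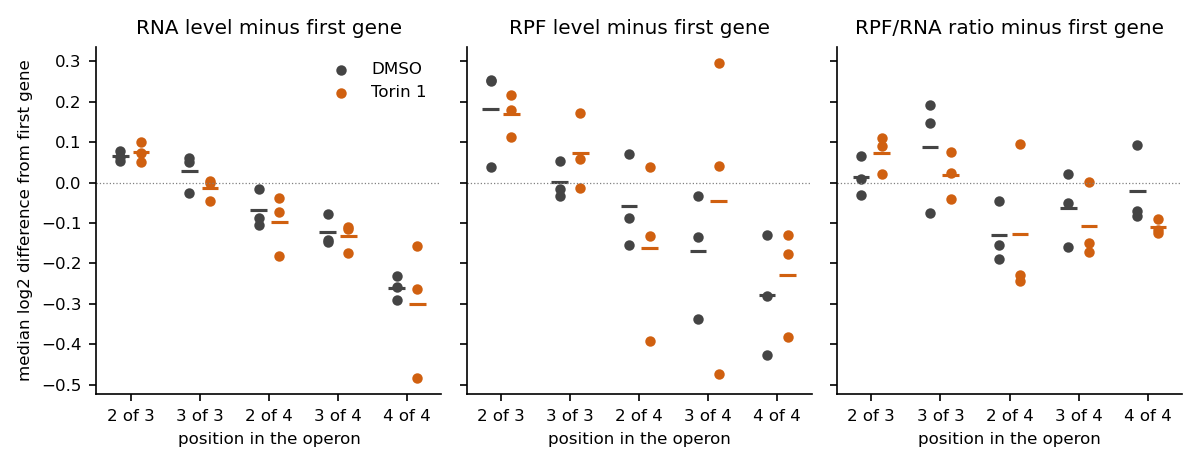
Median over operons of the within-operon difference from the first gene, in log2 RPKM of RNA, log2 RPKM of RPFs and log2 RPF-to-RNA ratio, at each later position; points are libraries or collections. The fourth gene of operons of 4 lies below 0 in all 12 libraries, at −0.26 ± 0.03 in RNA of DMSO animals.

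The decline was not seen when reads and lengths were pooled over all genes at a position. In operons of 4, the pooled RNA level in DMSO was 78.0 ± 5.5 RPKM at position 1, 96.6 ± 3.3 at position 2, 93.7 ± 7.2 at position 3 and 94.2 ± 2.6 at position 4, a measure to which the most abundant genes add most. In operons of 3 the pooled levels were 79.5 ± 4.9, 74.5 ± 4.7 and 75.3 ± 4.9 RPKM. The gene with the highest RNA level stood at position 1 in 117, at position 2 in 122 and at position 3 in 126 of 365 complete operons of 3. In 162 complete operons of 4 it stood at position 1 in 47, at 2 in 41, at 3 in 35 and at 4 in 39. The ratio of RPF to RNA showed no steady order by position, since the mean differences from the first gene ran from −0.13 to 0.09 and those of single collections from −0.24 to 0.19. For the fourth gene they were −0.02 ± 0.10 in DMSO and −0.11 ± 0.02 under Torin 1.

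Genes that shared an operon differed widely in level. The highest and lowest gene of a complete operon were separated by a median of 1.82 log2 RPKM in RNA of DMSO animals in operons of 3 (3.54-fold) and 2.38 in operons of 4 (5.21-fold). In RPFs the separations were 2.37 and 3.15 log2 units, and in the log2 ratio of RPF to RNA 1.52 and 2.02. Across the 1240 neighbouring pairs of operon genes, the Spearman correlation of log2 RPKM was 0.29 in RNA, 0.19 in RPFs and 0.13 in the ratio (means of 3 DMSO libraries or collections). Across 3245 same-strand neighbours 61 to 1000 bp apart it was 0.47, 0.25 and 0.27, and across 2296 neighbours on opposite strands 0.20, 0.10 and 0.11. The median absolute RNA difference was nonetheless smallest within operons, at 1.02 log2 units against 1.26 for same-strand and 2.21 for opposite-strand neighbours. The correlations describe pairs that share a library and its depth, and the range of levels within a class bears on them. Within operons the RPF correlation was 0.27 in DMSO replicate 1, whose label is in doubt, and 0.16 and 0.14 in replicates 2 and 3. The median absolute RPF differences there were 1.04, 1.90 and 1.67 log2 units. Operon genes had median RPF counts of 724, 20 and 9 in these libraries. The part of depth in the wider RPF and ratio separations was not tested.

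Of the 3 operons of 3 and the 3 operons of 4 with the most RNA in DMSO animals, 4 held ribosomal protein genes. Values of single genes are given per library as RPKM relative to the library's total count, without TMM scaling. The most abundant gene took 42.7% of counts in RPF Torin 1 replicate 3, 21.2% in RPF Torin 1 replicate 1 and 17.9% in RPF DMSO replicate 3. In the other RPF libraries it took 0.78 to 3.22%. Such a share lowers the RPKM of all other genes of that library. Overlap of treatments in single genes is stated for these values, and was not tested with that gene left out. The operon of 3 on scaffold 1 (1577593 to 1579712, forward strand) runs from RPL39 through GSOIDG00000469001, which has no description, to RPLP1, a gene of the acidic stalk protein P1. RPL39 RNA stood at 2358, 2828 and 2151 RPKM in DMSO and at 2489, 2843 and 1417 under Torin 1. Its RPFs stood at 2105, 419 and 527 RPKM in DMSO and at 274, 163 and 370 under Torin 1. The RNA values of the treatments overlapped and the RPF values did not. RPLP1 showed the same pattern, with RPFs of 1350, 380 and 655 RPKM in DMSO and 238, 190 and 248 under Torin 1. The gene between them was lower in all, with RNA at 111 ± 22.7 RPKM in DMSO and RPFs of 26.8, 5.63 and 17.7 RPKM in DMSO and 15.1, 6.76 and 43.0 under Torin 1, which overlapped. The log2 fold changes in RPFs (Torin 1 over DMSO, with SE) were −1.81 ± 0.74 for RPL39, 0.13 ± 0.82 for the middle gene and −1.68 ± 0.69 for RPLP1, and none passed adjustment over all genes (adjusted p = 0.91 for RPL39, edgeR quasi-likelihood test with Benjamini-Hochberg adjustment).

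A like order was found in the operon of 4 on scaffold 20 (361279 to 365062, reverse strand). Its first gene, GSOIDG00006570001, has no description and is followed by RPL37A, RPS24 and RPL18, proteins of the large, small and large subunit. The RNA level in DMSO was 52.6 ± 17.8 RPKM for the first gene, 2266 ± 119 for RPL37A, 1584 ± 106 for RPS24 and 1111 ± 143 for RPL18. RPS24 had RPFs of 1042, 511 and 794 RPKM in DMSO and of 209, 124 and 202 under Torin 1, the widest fold change of a ribosomal protein gene in these operons (−1.99 ± 0.69). RPL37A had 1642, 486 and 724 against 273, 128 and 450 RPKM (−1.65 ± 0.73), and RPL18 had 754, 334 and 545 against 209, 140 and 223 (−1.38 ± 0.69). The first gene had 16.1, 45.9 and 39.1 against 14.6, 13.5 and 28.6 RPKM (−0.89 ± 0.70), with overlapping treatments.

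On scaffold 21 (576676 to 584020, reverse strand) GSOIDG00007832001 is followed by RPL35A, NAP1L1 and RPS23. NAP1L1, a histone chaperone and a TOP mRNA in humans, was less abundant as RNA in DMSO (231 ± 43.7 RPKM) than RPL35A (1677 ± 275) and RPS23 (2523 ± 145). RPL35A, whose primers are shown above, had RPFs of 1302, 526 and 907 RPKM in DMSO and of 214, 193 and 374 under Torin 1 (−1.71 ± 0.69). NAP1L1 had RPFs of 112, 102 and 86.9 RPKM in DMSO and of 36.2, 24.9 and 25.1 under Torin 1 (−1.65 ± 0.63). RPS23 had 1593, 659 and 1094 against 326, 251 and 574 RPKM (−1.43 ± 0.72), so that in all of these genes the treatments were apart. The first gene had 32.5, 14.8 and 6.46 RPKM in DMSO and 8.02, 4.94 and 23.6 under Torin 1 (−0.91 ± 0.80), which overlapped. None of the 4 passed adjustment. RPL36AL, the other gene with primers shown, had RPFs of 1186, 516 and 766 RPKM in DMSO and of 192, 109 and 495 under Torin 1 (−1.57 ± 0.73), which did not overlap.

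Not all abundant operons were of ribosomal protein genes. The operon of 4 on scaffold 9 (59493 to 65461, forward strand) comprises GSOIDG00017476001 to GSOIDG00017479001, none of them described, with RNA in DMSO of 652 ± 56.5, 1065 ± 84.5, 804 ± 68.5 and 1193 ± 26.5 RPKM in order of position. The RPF fold changes of all 4 were below 0 on the log2 scale, with −1.61 ± 0.69, −1.60 ± 0.71, −2.0 ± 0.75 and −1.56 ± 0.87. In the third gene, GSOIDG00017478001, RPFs were 517, 609 and 284 RPKM in DMSO and 124, 61.6 and 145 under Torin 1, with no overlap. The fourth had 1085, 1365 and 405 in DMSO and 378, 202 and 322 under Torin 1. In the operon of 3 on scaffold 10 (926663 to 936102, reverse strand) the genes parted. The second gene, GSOIDG00001308001, had RPFs of 921, 977 and 484 RPKM in DMSO and of 1084, 623 and 685 under Torin 1 (0.13 ± 0.67), while the third, GSOIDG00001307001, had 179, 722 and 148 against 118, 86.5 and 54.2 (−1.93 ± 0.77). The plot of the 6 most abundant operons gives the value of each gene in each library.

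**Figure D3:**
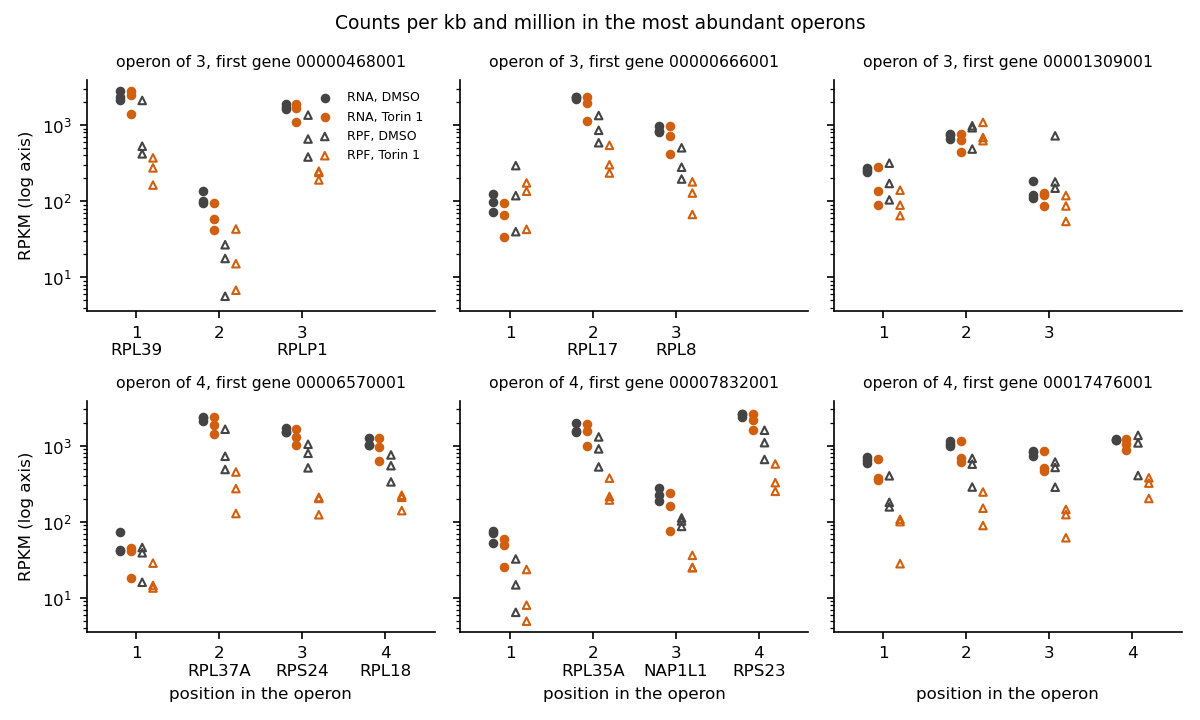
RPKM relative to the library's total count, on a log axis, of every gene in the 3 most abundant operons of 3 and of 4, in RNA and RPF libraries of DMSO and Torin 1 animals. Each point is 1 library and genes run from first to last. RPF points of the ribosomal protein genes under Torin 1 lie below those in DMSO, as for RPS24 at 124 to 209 against 511 to 1042 RPKM.

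Over all operons, the RPF fold changes of ribosomal protein genes under Torin 1 were more negative than those of the genes beside them. The study's list of orthologs of human TOP mRNAs and S6 kinases has 88 genes, of which 34 lay in operons of 3 or 4 (24 in operons of 2, 15 in longer ones and 15 outside), and the list gives a spliced leader for 33 of the 34, all but RPS4X. The list names 28 ribosomal protein genes in 19 of these operons, with 38 unlisted genes beside them, of which 1 is described as a ribosomal protein (S28, below). The median log2 fold change in RPFs was −1.45 for the ribosomal protein genes (27 of 28 below 0), −0.45 for the genes beside them (28 of 38 below 0), −0.45 for the 1714 genes of operons without a TOP gene and −0.24 for all genes tested. At an unadjusted p under 0.05, RPFs were lower in 13 of the 28, in 5 of the 38 and in 77 of the 1714, against 4.12% of all genes tested. The members of this list were chosen by orthology, but earlier results on TOP genes in these data were known.

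In efficiency (RPF relative to RNA, as the interaction of assay and treatment), the median log2 change was −1.06 for the ribosomal protein genes (27 of 28 below 0), 0.02 for the genes beside them, −0.05 for operons without a TOP gene and −0.46 for all genes tested. At an unadjusted p under 0.05, 2 of the 28 were lower, near the 7.5% of all genes tested. In RNA the medians were −0.22, −0.36 and −0.35, and none of the 28 was called in RNA, by adjusted or unadjusted p. By place, the 7 ribosomal protein genes that came first had a median RPF change of −1.24 (−1.81 to −1.15) and the 21 downstream a median of −1.53 (−1.99 to 0.00). Within operons, a ribosomal protein gene had a median of 4.59 log2 RPKM more RNA in DMSO than the mean of the genes beside it (higher in 26 of 28), and its RPF change lay below theirs in 26 of 28, with a median difference of −0.80 log2 units. The exceptions were RPL24 and RPS2, whose operon holds a gene with an RPF change of −7.69.

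Per library, the median RPF level of the 28 genes minus that of the 38 was 5.10, 4.16 and 5.38 log2 RPKM in DMSO and 3.85, 2.79 and 3.93 under Torin 1, with no overlap, also without RPF DMSO replicate 1. In RNA the same difference was 4.97, 5.34 and 4.87 in DMSO and 5.69, 5.28 and 4.65 under Torin 1, which overlapped. In the log2 ratio it was 0.19, −1.10 and −0.16 in DMSO and −1.63, −1.97 and −0.34 under Torin 1, which overlapped too. The difference between the medians of the fitted RPF changes, −1.0, lay between −1.35 and −0.77 when any 1 of the 6 libraries was left out. Without the 4 libraries named above it was −0.78 in RPFs and −1.39 in efficiency, and in RNA it went from 0.14 to 0.71. Ribosomal protein genes have related copies in many genomes, and how reads with several positions were counted is not given in the sources used here, so the counts of single genes are uncertain to that extent.

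**Figure D4:**
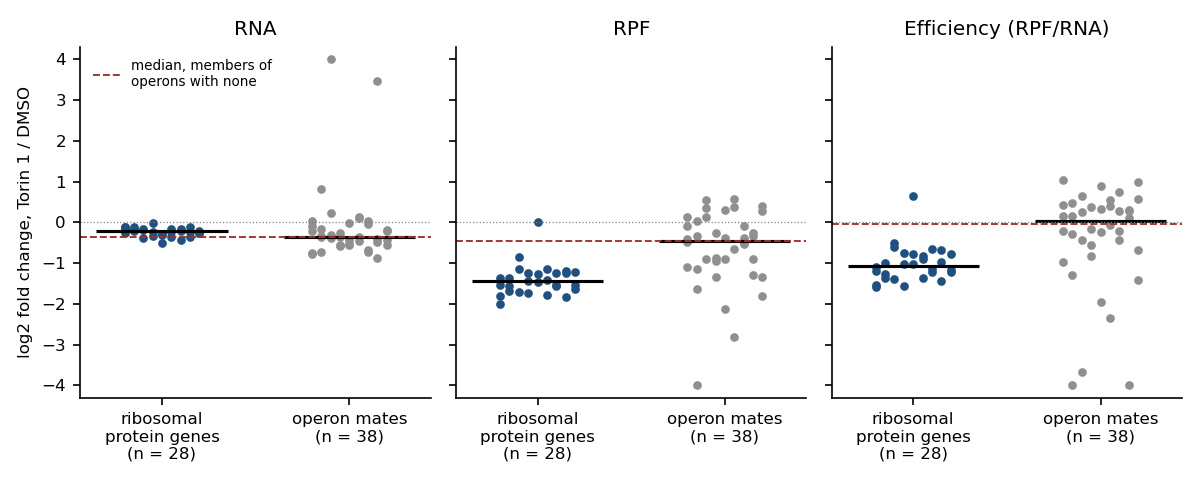
Log2 fold change with Torin 1 in RNA, RPFs and efficiency for 28 ribosomal protein genes and the 38 unlisted genes of their operons; each point is a gene, and points beyond 4 log2 units are drawn at that limit. In RPFs the ribosomal protein genes have a median of −1.45 and the genes beside them of −0.45.

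Exceptions stood on both sides. RPL7 and RPL32, large-subunit proteins by their symbols, follow each other at positions 2 and 3 of an operon of 3 on scaffold 229. They are the only ribosomal protein genes of the 28 with less RNA than the genes beside them. RPL7 had RPFs of 58.2, 16.4 and 39.2 RPKM in DMSO and of 36.5, 30.7 and 39.1 under Torin 1 (log2 fold change 0.00 ± 0.66). RPL32 had 145, 102 and 186 against 49.6, 19.1 and 48.7 (−1.78 ± 0.67), and the first gene, GSOIDG00006990001, had 289, 616 and 577 against 512, 1086 and 484 (0.56 ± 0.73). The treatments were thus apart in RPL32 alone of the 3. RPS27A, a fusion of ubiquitin and a small-subunit protein, had an RPF fold change of −0.85 ± 0.73, and RPL19 before it in the same operon −1.55 ± 0.78, a difference within these errors.

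Some unlisted genes beside ribosomal protein genes had RPF fold changes as far below 0. GSOIDG00016651001, described as 40S ribosomal protein S28 and last in the operon of RPS4X on scaffold 71, had RPFs of 1545, 419 and 689 RPKM in DMSO and of 189, 163 and 481 under Torin 1 (−1.63 ± 0.71). GSOIDG00011412001, described as the alpha subunit of the nascent polypeptide-associated complex, a chaperone at the ribosome exit, is last in an operon of 4 that RPL31 opens on scaffold 4. It had RPFs of 305, 119 and 211 RPKM in DMSO and of 39.97, 31.4 and 71.3 under Torin 1 (−2.13 ± 0.67, unadjusted p = 0.00407 and adjusted p = 0.91 by edgeR), and RNA of 296 ± 12.0 and 289 ± 29.8. GSOIDG00013575001, undescribed and second in the operon of RPS26, had 676, 328 and 455 against 127, 77.0 and 184 (−1.80 ± 0.71). The treatments overlapped in the S28 gene and were apart in the other 2.

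Among the other TOP genes in these operons, the initiation factors EIF4B (position 3 of 4) and EIF3H (last of 3) and the poly(A)-binding protein PABPC1 (last of 3) had RPF changes of −1.20 ± 0.63, −1.23 ± 0.69 and −0.89 ± 0.67. EIF4B RPFs were 85.7, 52.9 and 52.1 RPKM in DMSO and 28.4, 17.5 and 32.8 under Torin 1, with no overlap, on counts of 34, 17 and 5 under Torin 1. Both S6 kinase genes, RPS6KB1 (last of 3) and RPS6KA1 (second of 3), had fold changes of −0.54 ± 0.75 and −0.56 ± 0.70. No elongation factor of the list lay in these operons.

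Over all 1797 operon genes, the fold changes with Torin 1 were small at the median and alike at every position. The median log2 fold change was −0.35 in RNA (0.22 over all genes tested), −0.47 in RPFs (−0.24) and −0.06 in efficiency (−0.46). The 7 position medians lay between −0.43 and −0.32 in RNA, between −0.51 and −0.43 in RPFs and between −0.11 and 0.04 in efficiency. No operon gene passed adjustment in RNA, RPFs or efficiency with edgeR, and no other gene tested did. At an unadjusted p under 0.05, RNA was higher in 66 operon genes (3.67%, against 10.1% of all genes tested) and lower in 0 (against 0.0274%). RPFs were lower in 97 (5.40%, against 4.12%) and higher in 3 (0.167%, against 1.3%). Efficiency was lower in 60 (3.34%, against 7.5%) and higher in 3 (0.167%, against 0.206%).

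First and downstream genes were called at like rates, with lower RPFs in 30 of 540 first genes (5.56%) and in 67 of 1257 downstream genes (5.33%). The 97 genes with lower RPFs lay in 82 operons, of which 69 held 1, 11 held 2 and 2 held 3 or more, among them the operon of 4 on scaffold 9 described above and that of RPL24 and RPL15 on scaffold 6. Across the 97, the median RPKM in RPF libraries was 93.2, 48.7 and 44.6 in DMSO and 19.4, 18.2 and 18.2 under Torin 1. Without the 4 libraries named above, the median of the operon genes was −0.98 in RNA, −0.24 in RPFs and 0.75 in efficiency, so the direction in efficiency turned. At an unadjusted p under 0.05, RPFs were then higher in 72 and lower in 128 operon genes (4.01 and 7.12%, against 5.73 and 3.67% of all genes tested). In RNA and efficiency that setting keeps a single RNA Torin 1 library, replicate 1, so counts of calls are not given. Single libraries moved the counts both ways. The counts that follow, each without a single library, are given without the share of all genes tested. They show how the calls depend on the libraries, not a trait of operon genes. RNA was higher in 2 operon genes without DMSO replicate 3, in 11 without Torin 1 replicate 3, in 14 and 19 without DMSO replicates 1 and 2, and in 102 without Torin 1 replicate 2, where 150 were lower. RPFs were lower in 38 without Torin 1 replicate 2 and in 143 without DMSO replicate 2, and higher in 72 without DMSO replicate 1. Efficiency was lower in 10 and higher in 31 without RPF DMSO replicate 1, and lower in 99 without RPF DMSO replicate 2. With each collection as a block, efficiency was lower in 8 and higher in 0 (0.445 and 0%, against 2.56 and 0.165% of all genes tested), with a median of 0.07. With RLE in place of TMM scaling the efficiency median was −0.25. Since RNA DMSO and RNA Torin 1 replicate 2 were nearly equal, RNA was also compared without both, and the median was then −0.54.

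**Figure D5:**
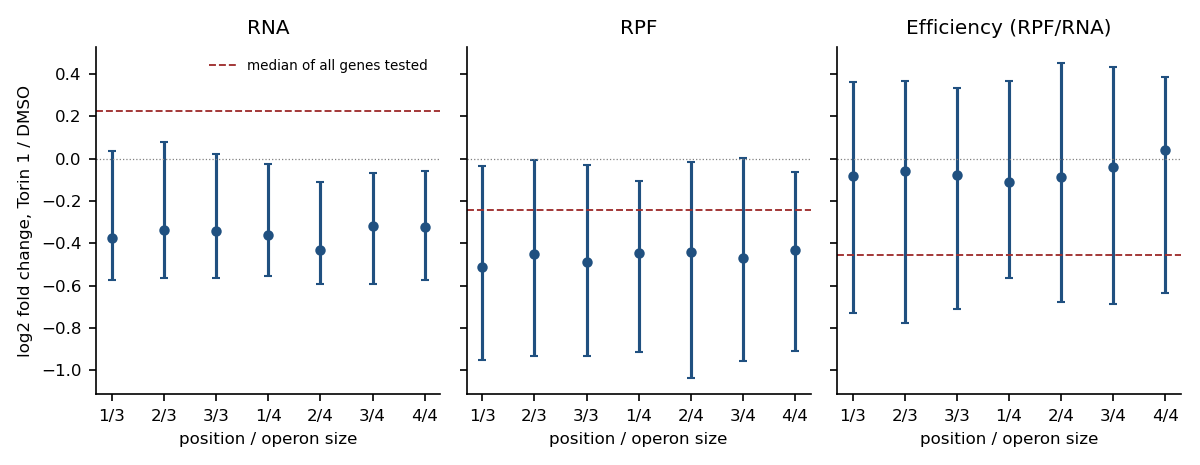
Median log2 fold change with Torin 1 in RNA, RPFs and efficiency at each position of operons of 3 and of 4, with quartiles as bars; the dashed line is the median of all genes tested. Position medians lie between −0.43 and −0.32 in RNA and between −0.51 and −0.43 in RPFs.

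Beyond the TOP genes, 2 of the genes with the smallest unadjusted p in RPFs were of another kind. GSOIDG00013286001 (described as 2510005d08rik protein, second of 3) had RPFs of 305, 8.45 and 36.8 RPKM in DMSO and of 3.43, 21.1 and 0 under Torin 1, and GSOIDG00014965001 (last of 4) had 681, 10.6 and 50.9 against 19.4, 10.6 and 50.7. Their log2 fold changes of −3.42 ± 1.06 and −3.40 ± 1.06 became −0.72 and −0.32 without RPF DMSO replicate 1, and the treatments overlapped. GSOIDG00000772001, first of 3, had a fold change above 0 (1.50 ± 0.72), with 17.4, 8.74 and 15.2 RPKM in DMSO and 55.0, 26.2 and 13.9 under Torin 1, which overlapped.

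In DMSO animals, RPFs were compared with RNA to find genes with high or low efficiency. At an adjusted p under 0.05 (edgeR, Benjamini-Hochberg), RPFs were above RNA in 53 operon genes (2.95%, against 6.79% of all genes tested) and below RNA in 29 (1.61%, against 1.21%). The median log2 difference was −0.52 for operon genes and 0.17 for all genes. Higher calls were made in 14 of 540 first genes (2.59%) and 39 of 1257 downstream genes (3.1%), lower calls in 7 (1.30%) and 22 (1.75%). The 53 lay in 40 operons, with 3 or more called in 4 of them, and the 29 lay in 27 operons. With the collection of animals as a block, 52 and 63 were called (7.16 and 2.13% of all genes tested), and without the 4 libraries 55 and 303 (7.85 and 9.89% of all genes tested). Without RPF DMSO replicate 1 the counts were 73 and 388, without RPF DMSO replicate 2 they were 65 and 3, without RPF DMSO replicate 3 they were 2 and 0, and without RNA DMSO replicate 3 both were 0. The share of all genes tested is not given for these settings without a single library, so they show the dependence on libraries only.

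Of the 53 genes, 13 had a description. The 4 with the largest differences were a gene described as like nucleoside-diphosphate kinase (GSOIDG00013465001, log2 difference 5.48 ± 0.98), an IQ domain protein D (GSOIDG00000578001, 5.26), a Tctex-type dynein light chain (GSOIDG00016750001, 5.04 ± 1.00) and an EF-hand protein 10 (GSOIDG00013050001, 5.03 ± 1.02), all with adjusted p by edgeR between 0.0105 and 0.0256. The dynein light chain, a subunit of the dynein motor, had RNA of 16.1, 12.6 and 2.54 RPKM in DMSO and of 58.0, 8.83 and 579 under Torin 1. Its RPFs were 585, 30.4 and 199 in DMSO and 259, 667 and 109 under Torin 1. Over the 53 genes, the median RNA level was 7.86, 9.42 and 3.25 RPKM in DMSO and 16.4, 8.83 and 224 under Torin 1, and the median RPF level was 299, 16.4 and 50.9 in DMSO and 49.6, 149 and 65.9 under Torin 1. High RNA was thus found in Torin 1 replicate 3 alone, and the highest RPFs in DMSO replicate 1. The summed level of the 18 sperm and cilia genes was highest in RNA Torin 1 replicate 3 among RNA libraries, and in RPF Torin 1 replicate 2 and RPF DMSO replicate 1 among RPF libraries, and none of the 18 was at 0 in DMSO. Its part in the result was not tested.

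Such genes could fill an operon. In the operon of 3 on scaffold 107 (28069 to 31135, forward strand) all genes were called, with RPFs above RNA by 8.43 ± 1.61, 8.59 ± 1.80 and 6.5 ± 1.04 log2 units for GSOIDG00001806001, GSOIDG00001807001 and GSOIDG00001808001. The last of them had RNA of 2.51, 5.43 and 1.51 RPKM in DMSO and RPFs of 568, 46.7 and 97.3. In the operon of 3 on scaffold 9 (298869 to 300385, reverse strand) all were called as well. Its first gene, GSOIDG00017565001, had the largest log2 difference of the operon genes (9.0 ± 1.41) on RNA counts of 1, 1 and 0 in DMSO, where a count of 0 allows up to 3 reads. More often the genes of an operon parted. In the operon of 3 on scaffold 9 (342662 to 345338, forward strand), which had the widest spread of all 495 operons with enough RPFs, the log2 ratio in DMSO was −1.57 ± 0.29 for the first gene, 6.80 ± 1.30 for the second and 6.15 ± 1.38 for the third.

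At the other end were operons whose genes had nearly equal ratios, among 495 with a median spread of 1.63 log2 units and a lowest of 0.09. The operon on scaffold 6 (349870 to 354657, forward strand), had log2 ratios in DMSO of −0.21 ± 0.96, −0.31 ± 0.47 and −0.30 ± 0.36 for GSOIDG00014928001 to GSOIDG00014930001, although their RNA levels were 374, 413 and 378 RPKM for the first and 85.6, 75.5 and 77.8 for the third. In that on scaffold 23, which opens with a gene described as a Na+/K+ alpha 1 polypeptide (GSOIDG00007922001), the ratios were 1.24 ± 0.88, 1.40 ± 1.37 and 1.33 ± 1.27. The spread between collections was wider than the spread between genes in both.

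Among the 29 genes with RPFs below RNA in DMSO, the gene with a description or symbol was RPS6KB1, the gene of an S6 kinase that mTOR activates. It is the last gene of an operon of 3 on scaffold 1 (1885984 to 1889614, reverse strand). Its RNA was 92.5, 84.5 and 113 RPKM in DMSO and its RPFs 30.4, 8.24 and 12.0, a log2 difference of −2.20 ± 0.56 (adjusted p = 0.0368, edgeR). This call held in 6 alternative settings and was lost in 5, with the same direction in all. Without 1 library the log2 difference ran from −3.15 to −1.87. The second gene of the operon, GSOIDG00000570001, went the other way in the fit, with RNA of 9.29, 12.6 and 3.39 RPKM and RPFs of 1071, 11.0 and 28.7 (5.74 ± 1.47, adjusted p = 0.0371 by edgeR). Its RPFs were by far the highest in replicate 1, whose label is in doubt, and in replicate 2 their RPKM did not exceed that of RNA. The first gene, GSOIDG00000571001, was even (0.02 ± 0.61). GSOIDG00008146001 and GSOIDG00010394001, both undescribed, had the largest lower differences, each of −2.60 (SE 0.60 and 0.66). Over the 29 genes, the median RNA level was 75.4, 58.3 and 99.6 RPKM and the median RPF level 19.8, 6.29 and 10.4 in DMSO.

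Under Torin 1 no operon gene passed adjustment for RPFs against RNA with edgeR. At an unadjusted p under 0.05, RPFs were below RNA in 274 (15.2%, against 9.21% of all genes tested) and above in 27 (1.50%, against 2.86%). Ribosomal protein genes were among the former, with 23 of 28 lower and a median log2 difference of −1.92, against −0.66 for the genes beside them, where 8 of 38 were lower. In DMSO the ribosomal protein genes had a median of −0.87, with 1 lower at an unadjusted p under 0.05, against 1644 of the 14574 genes tested. Both comparisons hold an RNA replicate 2 library, and these were nearly equal. With the collection as a block, 162 operon genes were below and 44 above RNA under Torin 1 at an unadjusted p under 0.05 (9.02 and 2.45%, against 6.13 and 5.26% of all genes tested). At an adjusted p under 0.05, 5 were above (0.278%, against 0.686%). Without the 4 libraries named above, RNA Torin 1 replicate 1 is the only RNA library left, so no count is given here. By collection, the median log2 ratio of operon genes under Torin 1 was 0.03, −0.95 and −0.98. For all tested genes with a model it was −0.19, −0.22 and −1.35. Operon genes were thus lower in collection 2 alone, and the direction was not the same in the 3 collections. Without RNA Torin 1 replicate 3, 35 operon genes were above and 8 below RNA at an adjusted p under 0.05. At an unadjusted p, 88 were below without RPF Torin 1 replicate 2 and 481 without RNA Torin 1 replicate 1. For the settings without a single library the share of all genes tested is not given, so these counts show the dependence on libraries only.

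Few other gene groups could be followed, since 64 of the operon genes had a description. Of the fixed keyword lists, these operons held 6 of 50 kinases, 2 of 7 ubiquitin genes, 2 of 18 sperm and cilia genes, 1 of 12 oikosins (proteins of the mucous house), 1 of 2 polymerase subunits and the 1 tRNA synthetase. They held none of 2 oocyte, 13 muscle and 5 histone genes, and no described gene matched proteasome, splicing factor or mitochondrial ribosomal protein. The oocyte genes summed to 8.41 to 37.6 RPM in the RNA of DMSO animals and the muscle genes to 60.3 to 950. Both sums were lowest in RNA DMSO replicate 3, and whether these genes mark their cell types in *O. dioica* was not tested.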

How the data were processed

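Total RNA and ribosome-protected fragments of 3 DMSO and 3 Torin 1 collections of animals (12 libraries) were analysed. Per the labels and the study's methods, the authors aligned reads with Bowtie2 2.1.0 and TopHat2 2.0.13 and counted them per gene with featureCounts, and the deposited values are whole-number counts, not normalized. The strand setting, the treatment of reads with several positions and the genome build are not given in the sources used here. Gene models, and the coordinates, exon lengths and coding lengths, came from the deposited annotation (values of other kinds: positions on scaffolds). Operons were built from gaps of at most 60 bp, on models of mRNA sorted by scaffold, strand and start. All count columns matched a sample. The members and gene lists were chosen with earlier results of these data known.

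Genes with at least 100 reads over the 12 libraries were tested with edgeR 4.0.16 (limma 3.58.1, R 4.3.3): TMM factors, glmQLFit and glmQLFTest, Benjamini-Hochberg adjustment over all 14574 genes and a threshold of 0.05. The study's tool for translational efficiency, babel, was not installed, so efficiency was the interaction of assay and treatment. Standard errors were computed from the log2 fold change and the F statistic. Log2 levels used a prior count of 2. DESeq2 1.42.0 was an alternative, and Python 3.11.15 with numpy 2.4.6, pandas 2.3.3, scipy 1.17.1 and matplotlib 3.10.9 was used for the rest. The scripts were tested on simulated data. RNA and RPFs of 1 treatment and number came from the same collection, by the study's methods, with RNA taken from a part of its animals. The numbers therefore pair them, and the correlation of their deviations from the group means ran from −0.12 to 0.18. The p-values measure the spread between libraries. In the main setting the RNA and RPF libraries of a collection entered the efficiency and RPF-against-RNA fits as separate samples, without the pairing. The fits with the collection as a block use it. The nearly equal RNA replicate 2 libraries also entered as separate samples. The small totals of 5 RPF libraries limit the precision of RPF values, and the limit a count of 0 allows (3 counts) covers counting error only.

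Genes were named by rule: every gene on the study's TOP and S6 kinase list; per comparison and direction, up to 5 described genes and 2 by identifier that passed, averaged 20 counts or more and had 1 sign in all 3 same-numbered pairs, or the 3 with the smallest unadjusted p where none passed; the 3 most abundant operons of 3 and of 4; the 3 operons with the widest and the 3 with the narrowest spread of the ratio; and operons whose genes all passed. Some list symbols of related genes or pseudogenes were written as the symbol of the parent ribosomal protein gene. A symbol such as RPL7 can therefore stand for a related gene. Genes beside ribosomal protein genes, and those named as in the same operon, were singled out after their values were seen. Keyword lists from the study's partial descriptions were oocyte, house epithelium (oikosin), muscle, sperm and cilia, histone, proteasome, splicing factor, tRNA synthetase, mitochondrial ribosomal protein, polymerase subunit, ubiquitin and kinase.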

Additional observations from a re-analysis of the deposited data

Results flagged for a closer look

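GSOIDG00016016001, a gene without a description, was singled out because every DMSO collection had RPFs below RNA and every Torin 1 collection had RPFs above RNA. Its log2 ratio of RPF to RNA was −1.05, −0.19 and −1.60 in DMSO and 1.09, 1.06 and 1.53 under Torin 1. The mean difference was 2.17 log2 units, and the interaction test gave an unadjusted p of 0.0224 and an adjusted p of 0.494 (edgeR), so it did not pass adjustment. Its RPF counts under Torin 1 were 6, 7 and 1.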

How the results depend on the processing

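With edgeR, adjusted calls among the operon genes were 0 in RNA, RPFs and efficiency in the main setting, and 66, 97 and 60 genes were called in the direction with more calls at an unadjusted p under 0.05. With DESeq2, 5 genes were higher in RNA and 6 lower in efficiency, 118 were lower for RPF against RNA in DMSO (29 in the main setting), and under Torin 1 9 were higher and 23 lower. Without a minimum count, 50 were lower in DMSO. The share of all genes tested is not given for DESeq2, for no minimum count or for the settings without a single library. Whether those counts lie above or below that share is therefore not shown. RNA and RPFs of 1 treatment and number are paired by their collection. With the replicate block, 63 were lower in DMSO (3.51%, against 2.13% of all genes tested) and 5 higher under Torin 1 (0.278%, against 0.686%). Whether a number shared by DMSO and Torin 1 animals marks a shared collection is not given by the labels. The deviations did not show it for every pair (correlations of deviations between −0.13 and 0.66 in RNA, between −0.06 and 0.01 in RPFs). With that block 11 genes were higher in RNA (0.612%, against 8.65% of all genes tested) and 41 lower in RPFs (2.28%, against 1.31%) at an unadjusted p under 0.05. Alternatives added after seeing the data were leaving out both RNA replicate 2 libraries, leaving out the 4 libraries named in the report, and pooling reads by position. Without the 4 libraries, adjusted RPF calls were 4 higher (0.223%, against 0.295% of all genes tested) and 1 lower (0.0556%, against 0.0206%). Calls for RPF against RNA in DMSO were then 303 lower (16.9%, against 9.89%). Under Torin 1 they were 68 higher (3.78%, against 5%) and 24 lower (1.34%, against 2.59%), both below the share of all genes tested. These Torin 1 counts rest on a single RNA Torin 1 library and show the dependence on libraries only. In that setting the RNA median of ribosomal protein genes minus that of the genes beside them was 0.71. Without 1 library at a time, adjusted calls ran from 0 to 4 higher and 0 to 14 lower in RPFs, 0 to 73 higher and 0 to 388 lower for RPF against RNA in DMSO, and 0 to 35 higher and 0 to 8 lower under Torin 1; in RNA and efficiency they stayed at 0. The ribosomal protein difference lay between −0.01 and 0.33 in RNA, between −1.35 and −0.77 in RPFs and between −1.42 and −0.87 in efficiency. The change from first to last gene (main −0.010 in RNA, −0.06 in RPFs, 0.0022 in efficiency) ran from −0.044 to −0.0093, −0.13 to 0.054 and −0.068 to 0.041. It was −0.028 in RNA and 0.11 in efficiency with a gap of 30 bp, −0.054 in RNA and 0.014 in RPFs in operons of 4, and 0.018 in RNA and −0.13 in RPFs without the 4 libraries. The level of the last gene minus the first (RNA in DMSO −0.06, in Torin 1 −0.08; RPFs −0.10 and −0.05; ratio in Torin 1 −0.03) was, with a gap of 30 bp, −0.14, −0.13, −0.041 in RPFs in DMSO and 0.019 in the ratio; with 100 bp, −0.13 in RPFs in DMSO and −0.095 in the ratio; in operons of 3, 0.029, −0.013, 0.0014, 0.072 and 0.020; in operons of 4, −0.26, −0.30, −0.28, −0.23 and −0.11; by coding length, −0.083 in RNA and −0.024 in RPFs in DMSO; pooled, 0.039, 0.026 and 0.048 in RPFs in DMSO; and in complete operons −0.075 in RPFs in DMSO. Leaving out 1 library gave −0.070 to −0.051, −0.095 to −0.061, −0.11 to −0.092, −0.097 to 0.014 and −0.056 to −0.015 for the same 5, and −0.041 to 0.079 for the ratio in DMSO. The RNA likeness of 0.29 was 0.29 without overlapping pairs and 0.27 among genes averaging 20 counts or more, and stayed at 0.29 without 1 library (0.15 to 0.21 in RPFs, 0.10 to 0.15 in the ratio). Some single-gene changes reversed. Without the 4 libraries, the efficiency change was 0.14 for RPS2, 0.25 for EIF4B, 0.97 for PABPC1, 0.35 for NAP1L1, 0.56 for EIF3H and 1.62 for RPLP1 (GSOIDG00000922001), and the RPF change was 0.44 for this RPLP1 and 0.24 for RPS6KB1, both also without RPF DMSO replicate 1, where RPLP1 efficiency was 1.04. With the replicate block, efficiency was 0.14 for RPLP1 and 0.042 for RPS6KA1. Without 1 library, RPLP1 ran from −1.89 to 0.44 in RPFs and −1.31 to 1.04 in efficiency, RPS6KB1 from −0.87 to 0.24 and, in efficiency, between −0.078 (lacking RNA Torin 1 replicate 1) and 1.14, RPS6KA1 from −1.01 to 0.063 (without RPF DMSO replicate 2) and from −0.56 to 0.54, EIF3H efficiency from −0.84 to 0.046 (without RPF Torin 1 replicate 2), and RPL7 RPFs from −0.33 to 0.53, the last being −0.015 without a minimum count. RPS6KA1 efficiency was 0.22 without both RNA replicate 2 libraries. The cause of these shifts was not tested. In RPF Torin 1 replicate 3, 453 of the operon genes were at 0, so low RPF levels were not measurable there.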
